A study of Homo sapiens with 6 samples.

Results

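A small population of cells in human retinal organoids carried RNA of GFAP or PAX2, genes of astrocytes and their precursors, with at most 1 UMI of chosen marker genes of Müller glia, photoreceptors and fibroblasts. The cells were chosen by their own counts of UMIs (unique molecular identifiers, one per captured RNA molecule). A cell was included with at least 3 UMIs summed over GFAP, PAX2, AQP4 and S100B, of which at least 1 came from GFAP or PAX2. It was excluded with more than 1 UMI of RLBP1 (Müller glia), of NRL (rods), of PDE6H (cones) or of COL1A1, COL1A2 and COL3A1 together (mural cells and fibroblasts). These limits were met by 261 of the 43757 cells kept, or 0.596%, and 162 of the 261 came from the cultured sample of Set 1. They are called gated cells below. The levels of these 10 genes chose the cells, so they are described and not tested.

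The organoids were grown from the established embryonic stem cell line WA09, of human origin, with a tdTomato reporter for CRX, a photoreceptor transcription factor. They were cultured for 113 to 126 days and broken into fragments. Transplanted fragments were placed under the retina of normal dogs for 3 days, and cultured fragments of the same organoid batch stayed in the dish for those 3 days. Each of 3 independent experiments, called Sets, gave 1 cultured and 1 transplanted sample, so that each condition had n = 3 and samples of a Set were paired. All samples share the 1 cell line, and every value concerns UMIs assigned to human genes in single-cell 3' libraries. Dog RNA that maps to human genes was not removed.

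Astrocytes of the human retina are not made by the retina. They enter along the optic nerve from the optic stalk, whose cells express PAX2, and in the adult they cover the nerve fibre layer. Müller glia arise from retinal progenitors and span the whole retina, and they express RLBP1, a retinoid carrier of the visual cycle. GFAP is an intermediate filament protein of astrocytes that stressed Müller glia also make, S100B is a calcium-binding protein and AQP4 a water channel of glial endfeet.

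The samples held between 6850189 and 108222149 UMIs in all, and the kept cells had medians of 2140 to 4415 UMIs. The gated cells numbered 162, 20 and 6 in cultured Sets 1, 2 and 3, and 63, 1 and 9 in transplanted Sets 1, 2 and 3. Their median depth was 2766 UMIs in cultured Set 1, 3984 in transplanted Set 1 and 8748 in cultured Set 2. Comparisons between classes of cells used raw UMIs summed per sample, in samples with at least 10 cells of each class, which left these 3 samples from 2 Sets. Levels are given as CPM, the counts of a gene scaled to a common total (counts-per-million) within that class and sample, in the order cultured Set 1, transplanted Set 1 and cultured Set 2 unless other samples are named. No gated cell shared its barcode with a gated cell of another library, and 4 had a barcode that was also kept elsewhere.

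GFAP and S100B together were the usual combination. GFAP was detected in 212 of the 261 cells, S100B in 198, PAX2 in 61 and AQP4 in 15. GFAP with S100B alone accounted for 153 cells, GFAP alone for 32, PAX2 with S100B for 25 and PAX2 alone for 24. Only 12 cells held both GFAP and PAX2, so the gate joined largely separate cells. GFAP stood at 766, 682 and 186 CPM and S100B at 796, 504 and 194 CPM. PAX2 stood at 90.1, 136 and 136 CPM and AQP4 at 21.6, 14.8 and 11.6 CPM. The marker sum was exactly 3, the lowest allowed, in 81 cells, and over 10 in 33.

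Set 1 held most of the gated cells in both conditions. Their share of kept cells was 0.905% in cultured Set 1 (95% exact Clopper-Pearson interval 0.772 to 1.05%) and 0.807% in transplanted Set 1 (0.620 to 1.03%). It was 0.188% in cultured Set 2 (0.115 to 0.290%), 0.144% in transplanted Set 2 (0.00365 to 0.8002%), 0.318% in cultured Set 3 (0.117 to 0.692%) and 0.187% in transplanted Set 3 (0.0855 to 0.354%). These intervals cover counting error only. The share was lower in the transplanted sample of each Set, by less than the spread between Sets. It averaged 0.470% ± 0.382 in cultured and 0.379% ± 0.371 in transplanted samples (SD, n = 3), a difference of -0.0912 points. The two-sided exact permutation p was 0.5 for n = 3 against 3, where the smallest possible is 0.1, and sign flips within Sets gave p = 0.25, the smallest that exact test allows. Without cultured Set 1 the difference was 0.126 points, without transplanted Set 2 it was 0.0264 and without transplanted Set 3 it was 0.00505, each of the other sign.

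The positive limits of the rule were also met by cells that should lack these genes. Among cells with at least 3 NRL UMIs, which are rods, 0.984% in cultured Set 1 and 0.732% in transplanted Set 1 met them. Among cells within the exclusion limits, 1.69% and 1.64% met them there, at lower median depths (2542 and 2255 UMIs against 4282 and 5636.5 in rods). In Sets 2 and 3 the share within the limits ran from 0.218% to 0.480%, and in rods from 0.247% to 1.57%. It exceeded that of rods in cultured Set 3 alone, where it rested on 6 gated cells and 1 rod. Rods were deeper there too, with medians of 8398 against 3117 UMIs in cultured Set 2 and 7354 against 1870.5 in transplanted Set 3. Rods that met the limits had more RNA of 2 genes described below than the other rods, pooled over samples. CRYAB stood at 1152 against 104 CPM and HOPX at 46.7 against 8.82 CPM. The shares in Sets 2 and 3 were not told apart from this background, and are not read as expression. With rods unlike in depth, the comparison cannot show that those gated cells are background.

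**Figure D1:**
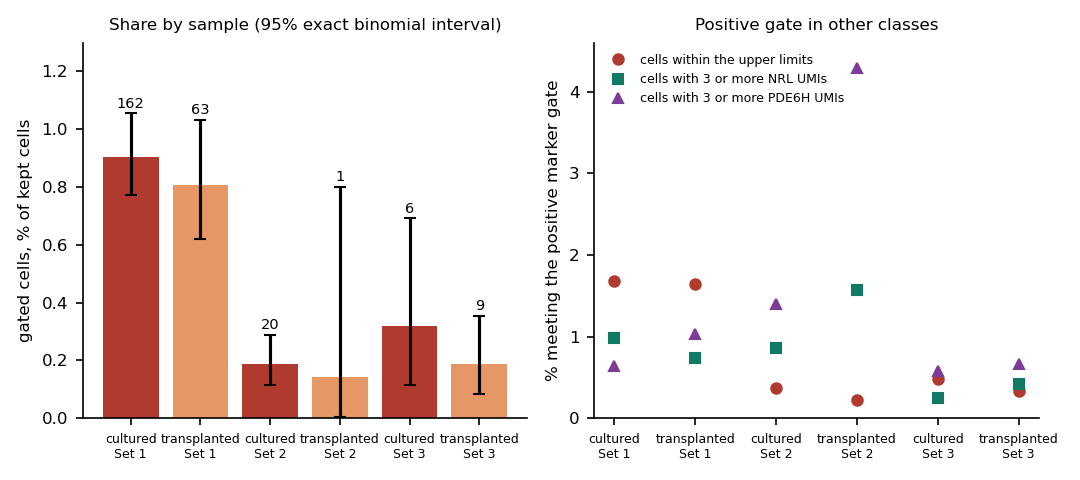
Left, gated cells as a percentage of kept cells in each sample, with 95% exact binomial intervals and the number of gated cells above each bar. Right, the percentage meeting the positive limits of the rule among cells within the exclusion limits (circles), cells with 3 or more NRL UMIs (squares) and cells with 3 or more PDE6H UMIs (triangles). The circles lie above both other classes in the 2 samples of Set 1, at 1.69% and 1.64%.

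Checked against markers that the rule did not use, the gated cells carried some astrocyte RNAs and lacked others. Of the 23 astrocyte genes listed, 18 reached a mean of 10 CPM, and the list summed to 5004, 7026 and 3527 CPM against 1805, 2216 and 1288 CPM in the other kept cells. SOX9, a glial transcription factor, stood at 202, 258 and 170 CPM and CD44, a hyaluronan receptor of astrocyte precursors, at 148, 139 and 159 CPM. Neither was called against the pigment-free RLBP1-positive cells described below, where SOX9 stood at 170, 205 and 81.6 CPM (0.34, edgeR adjusted p = 0.379) and CD44 at 97.9, 101 and 126 CPM (0.41, adjusted p = 0.289). Of 13 tested astrocyte genes 8 were higher than in those cells and 0 lower, against 4.45% and 3.94% of all genes tested, with a median log2 difference of 1.51. GJB6, a connexin of mature astrocytes, had 0 UMIs, and ALDH1L1, a folate enzyme used as a pan-astrocyte marker, stood at 3.602, 0 and 0 CPM. HEPACAM, an adhesion protein of astrocyte contacts, gave the same 3 values. GJA1, the main astrocyte connexin, was at 45.0, 14.8 and 7.74 CPM. Most listed astrocyte genes were thus detected, with GJB6, ALDH1L1 and HEPACAM at or near 0.

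Markers of several other cell types were low in the gated cells, whereas those of mural cells and fibroblasts exceeded their level in the other kept cells. The 5 endothelial markers summed to 3.602, 11.9 and 7.74 CPM, with VWF, CDH5 and EMCN at 0, and the 9 myeloid markers to 0, 32.6 and 3.87 CPM, with 6 of them at 0. Photoreceptor markers summed to 144, 80.1 and 96.8 CPM against 1397, 1530 and 2267 CPM in the other kept cells. Pigment epithelium markers summed to 52.2, 113 and 73.6 CPM, against 170, 299 and 173 CPM in the other kept cells. Inner neuron markers summed to 276, 154 and 221 CPM (346, 268 and 792 in the other kept cells) and neurogenic precursor markers to 261, 240 and 267 CPM (706, 486 and 394). Mural and fibroblast markers beyond the rule summed to 151, 89.0 and 267 CPM, above the 115, 68.5 and 85.2 CPM of the other kept cells in each sample. Of the 3 tested against the pigment-free RLBP1-positive cells, ACTA2, smooth muscle actin, was higher (2.07) and PDGFRB, a receptor of pericytes, lower (-1.68), and the part of such cells in the differences below was not tested. No haemoglobin UMI was found in the gated cells, and genes known only by a clone name, to which dog reads should rarely map, made up 0.630% and 0.546% of their UMIs in the cultured and transplanted samples of Set 1. The other kept cells had 0.664% and 0.644%. In Set 3 the share was 3.01% in cultured and 1.71% in transplanted gated cells, and 4.02% and 2.48% in the other kept cells. Haemoglobin UMIs numbered 14 in the other kept cells of cultured Set 3 and 1636 in those of transplanted Set 3. The part of dog RNA in the differences between conditions was not tested.

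Mitochondrial genes, most ribosomal protein genes and genes known only by a clone name were left out of the ranking by abundance. Among the rest, the most abundant RNA of the gated cells after MALAT1 and VIM was CRYAB, a small heat shock protein also called alpha B-crystallin. It stood at 6153, 7750 and 5866 CPM, a mean of 6590 ± 1015 (SD, n = 3 samples), against a mean of 243 in the other kept cells. PTN, a secreted growth factor of neural progenitors and glia, averaged 2135 CPM against 290 in the other kept cells, and METRN, a secreted factor of glial differentiation, 1758 against 469.

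Müller glia were first defined as planned, by at least 3 RLBP1 UMIs with the same limits on NRL, PDE6H and collagens. Of these 131 cells, 71 held RNA of a pigment gene, and PMEL, a melanosome protein, stood at 1337, 915 and 3045 CPM. Pigment epithelium also makes RLBP1, so the class was a mixture. Against it, edgeR's quasi-likelihood test with the sample as a block called 659 of 6830 genes (9.65%) at an adjusted p under 0.05 (Benjamini-Hochberg), 277 higher in the gated cells (4.06%) and 382 lower (5.59%). The 15 largest falls were led by the pigment genes TYRP1, with a log2 difference of -9.86, and PMEL with -8.80. Of those 15, 14 did not reach the low-count filter once pigmented cells were left out.

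A second comparator was therefore taken after these values had been seen, and all differences below refer to it. It held the cells with at least 2 RLBP1 UMIs, the same limits and no UMI of PMEL, TYR, TYRP1, MLANA, BEST1 or RPE65. There were 181 such cells, 67, 73 and 20 of them in the 3 samples compared, with median depths of 5397, 9961 and 4615 UMIs. The same test called 596 of 7103 genes (8.39%), 316 higher in the gated cells (4.45%) and 280 lower (3.94%), with 1341 genes below 0.05 before adjustment. Of the 596, 583 had the same sign in all 3 samples, as had 2785 of all 7103 genes tested. The calls were made on these same samples, so such agreement among them is largely built in. The count was 227 with DESeq2, 18 without the sample as a block, 119 without cultured Set 1, 275 without transplanted Set 1 and 453 without cultured Set 2, where the share was not told apart from background. Between the comparators, 215 genes were called in both, 203 of them with the same sign. Log2 differences are given ± SE, and all adjusted p-values come from edgeR's quasi-likelihood test over all genes tested. The fit between classes left few residual degrees of freedom, and 2 of its 3 samples came from Set 1. Its SE and p-values therefore draw in large part on variability shared across genes. They do not measure the spread between organoid batches.

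HOPX, SPARCL1 and NCAN, genes of astrocytes and of radial glia of the developing brain, were much higher in the gated cells. HOPX, a small homeodomain protein that does not bind DNA, stood at 416, 635 and 329 CPM in the gated cells and at 9.56, 3.35 and 14.8 CPM in the pigment-free RLBP1-positive cells. Its difference was 6.21 ± 0.33 (adjusted p = 1.52e-09), and every gated value lay above every comparator value. HOPX lies on the minus strand of chromosome 4 of GRCh38, from 56647988 to 56681899. SPARCL1 (hevin, a secreted protein that promotes synapse formation) stood at 250, 362 and 174 CPM against 9.56, 1.12 and 0 (6.24 ± 0.41, adjusted p = 1.82e-08). It lies on the same strand of chromosome 4, from 87473335 to 87531061. NCAN, the matrix proteoglycan neurocan, stood at 157, 101 and 42.6 CPM against 2.39, 2.24 and 0, and its pooled ratio, with 3 comparator UMIs in all, was 55.4 (95% counting interval 18.5 to 272).

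The other large rises were a mixed group of secreted, membrane and noncoding RNAs. CXCL14, a chemokine, stood at 621, 472 and 612 CPM against 40.6, 3.35 and 0 (5.14 ± 0.51, adjusted p = 0.0011), but 151 of its 158 UMIs in cultured Set 2 were in 1 cell. WLS, which carries Wnt ligands to the cell surface, was at 346, 29.7 and 54.2 CPM against 11.9, 1.12 and 0 (4.73). NPY (neuropeptide Y) stood at 173, 157 and 7.74 CPM, with 1 comparator UMI (pooled ratio 190.0, 95% counting interval 33.6 to 7554), and PANTR1, a noncoding RNA, at 139, 91.9 and 108 CPM, also with 1 (171, 30.2 to 6809). LINC01965, a noncoding RNA, stood at 61.2, 17.8 and 225 CPM with no UMI in the comparator, and was at least 41.1-fold higher than the level of 3 UMIs over its 3 samples. The remaining named rises were GPX3, GPC3, KCNIP4, NKAIN3, CDH6, EMP1 and SCRG1, by 2.92 to 4.15 on the log2 scale. CDH6, a cadherin, stood at 195, 145 and 441 CPM against 26.3, 20.1 and 14.8.

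CRYAB did not pass this test although its groups did not overlap. It stood at 306, 87.2 and 14.8 CPM in the comparator, a log2 difference of 5.61 ± 0.92 (adjusted p = 0.15). C1orf61, a gene of the developing brain, stood at 2252, 1536 and 561 CPM against 473, 186 and 312 (2.14, adjusted p = 0.0866). CRYAB did pass against the first comparator, at 3.48 ± 0.30 (adjusted p = 0.004), with DESeq2 (6.25, adjusted p = 1.53e-07) and without cultured Set 1 (6.68, edgeR adjusted p = 2.82e-06), but not without transplanted Set 1 (5.13, adjusted p = 0.366) or cultured Set 2 (5.27, adjusted p = 0.375). C1orf61 passed with any 1 of the 3 samples left out (1.64 to 2.55).

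**Figure D2:**
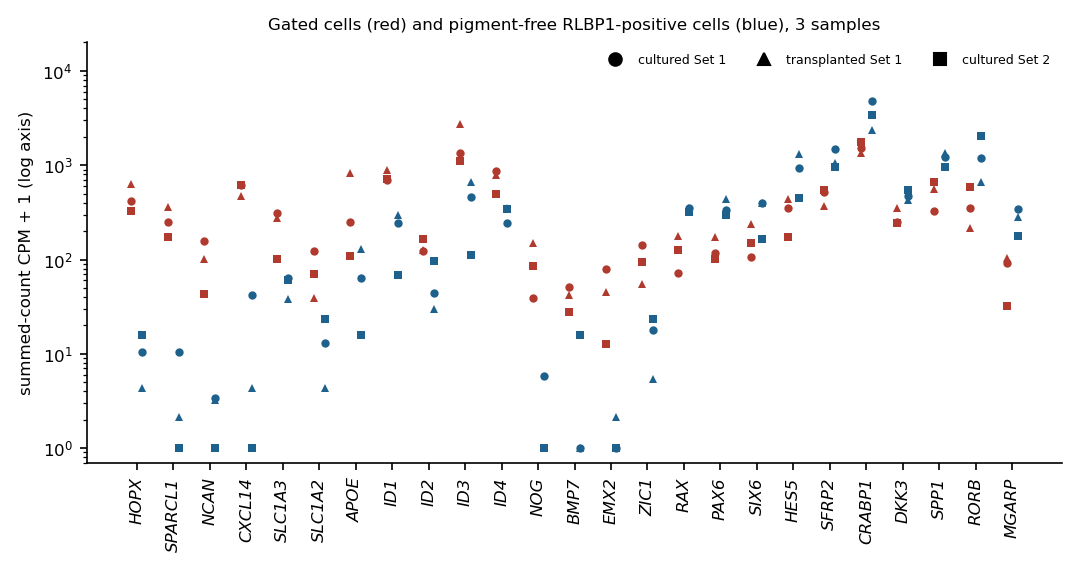
Level of 25 genes, as CPM + 1 on a log axis, in gated cells (red) and pigment-free RLBP1-positive cells (blue), with 1 symbol per sample. HOPX, SPARCL1, NCAN, NOG and EMX2 sit far higher in the gated cells, and RAX, PAX6, HES5, CRABP1, RORB and MGARP sit higher in the RLBP1-positive cells.

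The gene lists held 69 of the called genes that were not among the 30 largest rises and falls. APOE, ID1, ID3, NOG, SLC1A3, TNC, ZIC1, ANXA2, S100A10, RAX, PAX6, HES5, HES6, SFRP2, CRABP1, SPP1 and CADM1 were among the 18 that were called whichever of the 3 samples was left out. Of 59 measured without cultured Set 1, 25 remained called, of 60 without transplanted Set 1, 42, and of 65 without cultured Set 2, 56. DESeq2 called 40 of the 69, and without the sample as a block 0 of 62 measured were called. Among genes named in the text, those that lost their call without cultured Set 1 were CEBPD, PDGFRB, ID2, ID4, BMPR1A, SLC1A2, CA2, ATP1B2, CLU, FABP5, ANXA1, LGALS1, COL4A1, COL11A1, COL18A1, CP, IFITM3, SIX6, DKK3, FRZB, WIF1, FZD5, NOTCH1, HEY2, CDH11, NCAM1, CNTN1, B2M, SPRY1, CYP51A1, ADM, FOSB and BTG2. Without transplanted Set 1 they were CEBPD, PDGFRB, ID2, BMPR1A, CA2, ATP1B2, FABP5, VIM, SEMA5A, COL11A1, COL18A1, FZD5, NOTCH1, CDH11, CNTN1, SPRY1, CYP51A1 and ADM. Without cultured Set 2 they were BMPR1A, COL18A1, TF, FZD5, SEMA5A, TENM4, IGFBP5, CYP51A1 and FOSB. BMP7, BMPR1B, EMX2, HOXB2, ACTA2, FN1, VEGFA and EGLN3 were measured in only 1 of these 3 fits. EDNRB, SERPINA3 and ABCG1 were measured in 2 of them. Where these genes were not measured, their absence from the lists does not mean that the call held. All 69 kept their sign in each of these fits where measured, but ATP1B2, CEBPD, COL18A1, FZD5 and FABP5 took the other sign when the gated cells were limited to those with PAX2.

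In the BMP and ID list 8 of 9 tested genes were called higher against a background of 4.45%, with a median difference of 1.79 against -0.00636 over all genes. Of the 8, only ID1, ID3 and NOG were called whichever of the 3 samples was left out. BMPs are secreted ligands that signal through type I and type II receptors to SMAD factors. The ID genes are their direct targets, and ID proteins bind and block the basic helix-loop-helix factors that drive neurogenesis. ID3 stood at 1338, 2749 and 1119 CPM against 454, 666 and 111 (2.02 ± 0.26, adjusted p = 0.00175), and the gated cells were the higher class in each sample. ID1 stood at 704, 881 and 709 CPM against 241, 298 and 66.8 (1.79 ± 0.25, adjusted p = 0.00046). ID2 was higher by 1.47 and ID4 by 1.16 on the log2 scale.

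The ligand BMP7 stood at 50.4, 41.5 and 27.1 CPM against 0, 0 and 14.8, and with 2 comparator UMIs its pooled ratio was 30.8 (95% counting interval 8.09 to 262). NOG (noggin), a secreted protein that traps BMP ligands, stood at 37.8, 148 and 85.2 CPM against 4.78, 0 and 0, a pooled ratio of 58.5 over 2 comparator UMIs (15.8 to 490.3). With so few comparator UMIs, BMP7 and NOG passed the low-count filter through the gated cells and could only be called higher. Among the receptors, BMPR1B was higher by 2.77 and BMPR1A by 1.21, whereas the type II receptor BMPR2 was not called (0.50, adjusted p = 0.315).

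Since the 4 ID genes were higher together, their promoters were read from RefSeq (GRCh38.p14). The 250 bases before the start of ID1 (chr20:31605039-31605288, plus strand) and ID3 (chr1:23559502-23559751, minus strand), the members whose levels are given above, are shown 5′ to 3′, with a match to TTCNNNGAA in capitals.
ID1: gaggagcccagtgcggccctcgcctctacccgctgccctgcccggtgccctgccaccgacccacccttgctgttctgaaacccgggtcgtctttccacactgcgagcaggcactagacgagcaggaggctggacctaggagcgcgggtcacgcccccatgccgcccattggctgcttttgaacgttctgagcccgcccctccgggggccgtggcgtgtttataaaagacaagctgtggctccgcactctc
ID3: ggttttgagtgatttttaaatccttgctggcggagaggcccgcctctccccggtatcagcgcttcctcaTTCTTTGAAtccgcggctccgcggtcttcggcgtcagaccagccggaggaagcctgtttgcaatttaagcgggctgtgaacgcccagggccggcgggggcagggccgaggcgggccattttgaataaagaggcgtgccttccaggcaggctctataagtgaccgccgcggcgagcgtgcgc
The motifs searched on both strands were GGCGCC and GTCTAGAC, which SMAD factors bind, and TTCNNNGAA, the STAT site. ID3 had 1 match to TTCNNNGAA, which begins 181 bases before the start. ID1, ID2 and ID4 had none of the 3. Of 35116 promoter windows of this length, 16.4% held GGCGCC, 0.182% GTCTAGAC and 6.57% TTCNNNGAA. A match describes letters in this window only.

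Glial transport and matrix genes were partly higher. For these and the following lists, the background over all genes tested is 4.45% higher and 3.94% lower. Of 9 tested transport genes 4 were higher and 0 lower. SLC1A3, the glutamate transporter GLAST, stood at 313, 276 and 101 CPM against 62.1, 36.9 and 59.4 (2.31 ± 0.27, adjusted p = 1.11e-05), and SLC1A2, the transporter GLT-1, at 121, 38.6 and 69.7 against 11.9, 3.35 and 22.3 (2.92). The others were CA2, a carbonic anhydrase (1.48), and ATP1B2, a sodium pump subunit of glia (0.91). GLUL, glutamine synthetase, was not called (0.36, adjusted p = 0.358). Of 16 matrix genes 5 were higher and 2 lower. TNC, tenascin-C of immature astrocytes, stood at 148, 44.5 and 290 CPM against 4.78, 14.5 and 37.1 (2.82). With it, NCAN, SPARCL1, FN1 (2.08) and COL4A1 (1.62) were higher, and the collagens COL11A1 (-0.70) and COL18A1 (-0.88) were lower.

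The reactive glia list showed both directions, with 9 of 20 tested genes higher and 3 lower. The higher ones included the annexins ANXA1 (2.18) and ANXA2 (1.24), the galectin LGALS1 (1.56), S100A10 (1.71) and VIM, the filament vimentin, by 0.58. SERPINA3, an acute-phase protease inhibitor of reactive astrocytes, was higher by 2.21. It stood at 57.6, 750.4 and 23.2 CPM against 2.39, 163 and 14.8, so that the transplanted sample was the high one in both classes. CP (ceruloplasmin, -1.51), SPP1 (osteopontin, -1.34) and IFITM3 (-0.84) were lower. LCN2, CHI3L1 and C3, RNAs of strongly reactive astrocytes, had 0 UMIs in the 3 samples.

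Among secreted factors and lipid carriers, APOE, the main lipid carrier of astrocytes, stood at 247, 825 and 108 CPM against 62.1, 129 and 14.8 (2.37 ± 0.21, adjusted p = 3.88e-07). CLU (clusterin) was higher by 0.73 and FABP5, a fatty acid carrier, by 0.76, while ABCG1, a sterol exporter, was lower by 3.53 on the log2 scale. These were the 4 calls among 8 lipid transport genes. Of 11 growth factor genes 3 were higher and 0 lower: EDNRB, an endothelin receptor of astrocytes (2.95), IGFBP5 (2.29) and VEGFA (2.18).

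Some genes of retinal identity were lower in the gated cells, and Müller glia genes went both ways. RAX, the homeodomain factor of the eye field, stood at 70.2, 175 and 124 CPM against 349, 354 and 319 (-1.62 ± 0.22, adjusted p = 0.000101). PAX6, a factor of eye and forebrain progenitors, was lower by 1.53 and SIX6, of the eye field, by 1.14 on the log2 scale. They were the 3 calls among 8 retinal identity genes (background 3.94% lower), with none higher and a median of -0.71. SIX3 was at 133, 338 and 221 CPM against 356, 313 and 200.3 and was not called (adjusted p = 0.372).

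The Müller glia genes beyond the rule summed to 14190, 13376 and 13296 CPM in the gated cells against 15563, 12040 and 10958 CPM in the pigment-free RLBP1-positive cells, so that the gated cells were lower in cultured Set 1 only. VIM made up a large part of these sums, at 6592, 8370 and 8564 CPM against 5392, 5635 and 3991. The other listed genes together were lower in the gated cells in each sample, which rested largely on CRABP1 and SFRP2. With CRABP1 left out as well, their sum was higher in the gated cells of cultured Set 1. With SFRP2 also left out, it was higher in both samples of Set 1 and lower in cultured Set 2. Of 16 tested, 6 were lower, namely DKK3, FRZB, WIF1, TF, CRABP1 and SFRP2, and 4 were higher, namely SLC1A3, CLU, CA2 and VIM. CRABP1, a retinoic acid carrier, stood at 1515, 1332 and 1781 CPM against 4792, 2372 and 3376 (-1.21). SFRP2, FRZB, WIF1 and DKK3, secreted proteins known to modulate Wnt signalling, also belong to the Wnt list, where with the receptor FZD5 they made up 5 lower calls and 0 higher among 9. SFRP2 was at 521, 368 and 550 CPM against 1481, 1063 and 949.6, and WIF1 at 25.2, 62.3 and 50.3 against 143, 125 and 171.

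The Notch list had 3 lower calls and 1 higher among 10. HES5, a Notch target of neural progenitors, stood at 355, 436 and 174 CPM against 936, 1305 and 453 (-1.53 ± 0.15, adjusted p = 1.29e-06). NOTCH1 was lower by 0.96 and HES6, which opposes HES1, by 1.39 on the log2 scale. HEY2, another Notch target, was higher by 2.28, and HES1 was not called (-0.08, adjusted p = 0.853). In the adhesion list CDH6 and NCAN were higher and 5 of 11 genes lower, CDH11, NCAM1, CNTN1, CADM1 and TENM4. NCAM1, the neural cell adhesion molecule, stood at 155, 145 and 538 CPM against 363, 271 and 987 (-1.06).

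The 15 named falls were GABRG3, MYLK, H19, PRSS35, LINC01697, GALNT13, SPON1, MFAP2, SRRM4, MGARP, DCC, FLT1, SULF1, ADGRL2 and RORB, with log2 differences from -2.89 to -1.78. RORB, a nuclear receptor of retinal progenitors and Müller glia, stood at 353, 217 and 589 CPM against 1187, 664 and 2033 (-1.78 ± 0.14, adjusted p = 7.8e-08). In each sample the gated cells were the lower class. MGARP, a mitochondrial protein, stood at 90.1, 104 and 31.0 CPM against 346, 284 and 178 (-1.90). H19, an imprinted noncoding RNA, stood at 7.205, 80.1 and 3.87 CPM against 64.5, 463 and 22.3 (-2.73). SRRM4, which was called narrowly (adjusted p = 0.0429), lost its call without transplanted Set 1 or cultured Set 2, and SPON1, MFAP2, DCC and ADGRL2 lost theirs without cultured Set 1.

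Transcription factors of brain regions were detected in the gated cells at low levels. Of 18 listed, 5 could be tested and 4 were higher, with a median of 2.93. EMX2 and HOXB2 passed the low-count filter through the gated cells and could only come out higher. The count and the median were thus partly fixed in advance. ZIC1, a factor of the dorsal neural tube and forebrain, stood at 140, 53.4 and 92.9 CPM against 16.7, 4.47 and 22.3 (2.93 ± 0.36, adjusted p = 1.9e-05). EMX2, of the dorsal telencephalon, stood at 77.4, 44.5 and 11.6 CPM with 1 comparator UMI (pooled ratio 76.8, 95% counting interval 13.3 to 3081). HOXB2, of the hindbrain, stood at 32.4, 29.7 and 11.6 CPM with no comparator UMI, at least 13.003-fold higher than the level of 3 UMIs over the group. NKX2-1, EN1 and 5 others had 0 UMIs.

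Several lists held few calls or none, whereas hypoxia and glycolysis and the small optic stalk list held larger shares of higher calls. None of 12 cell cycle genes was called (median 0.24), and the cell cycle list summed to 1506, 810 and 2726 CPM in the gated cells against 1340, 788 and 935 CPM in the comparator. Of 16 immediate early genes FOSB (-0.81) and BTG2 (-0.90) were lower. B2M (0.81) was the 1 call among 8 MHC class I genes, SPRY1 (1.32) among 8 FGF genes and CYP51A1 (0.95) among 11 of cholesterol synthesis. VEGFA, ADM (1.43) and EGLN3 (2.61) were higher among 8 genes of hypoxia and glycolysis. In the optic stalk list, BMP7 and SEMA5A, a semaphorin (1.60), were higher among 4.

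The gated cells fell into unlike kinds by their marker, a division made after the values were seen and given without a test. Cells with GFAP and no PAX2 numbered 200, of which 133, 45 and 11 were in the 3 samples, and cells with PAX2 numbered 61, of which 29, 18 and 9 were there. HOPX stood at 517, 1039 and 725 CPM in the GFAP cells and at 42.4, 7.56 and 0 CPM in the PAX2 cells. CRYAB was at 6926, 12314 and 12164 CPM against 3285, 673 and 631, and CXCL14 at 775, 717 and 1339 against 50.9, 90.8 and 7.09. NCAN and SLC1A3 were also the higher in GFAP cells of each sample.

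The PAX2 cells had the higher levels of several eye genes. RAX stood at 110, 318 and 213 CPM in them against 59.4, 82.9 and 17.1 in the GFAP cells, and SIX6 at 204, 446 and 213 against 77.7, 97.6 and 68.2. PAX6 did not share this direction, at 59.4, 197 and 99.3 CPM in the PAX2 cells against 130, 156 and 102 in the GFAP cells. HMX1, a homeodomain factor of the eye, was at 221, 340.4 and 277 CPM against 38.9, 39.0 and 51.2, and TRH, a neuropeptide hormone, at 662, 1029 and 312 CPM against 50.3, 73.2 and 8.53. ID3 was alike in range, at 1212, 3005 and 1237 CPM in GFAP cells and 1808, 2353 and 1021 CPM in PAX2 cells. The 4 PAX2 cells of transplanted Set 3 differed from those of the other samples, with HOPX at 792 CPM and CRYAB at 28308 CPM.

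**Figure D3:**
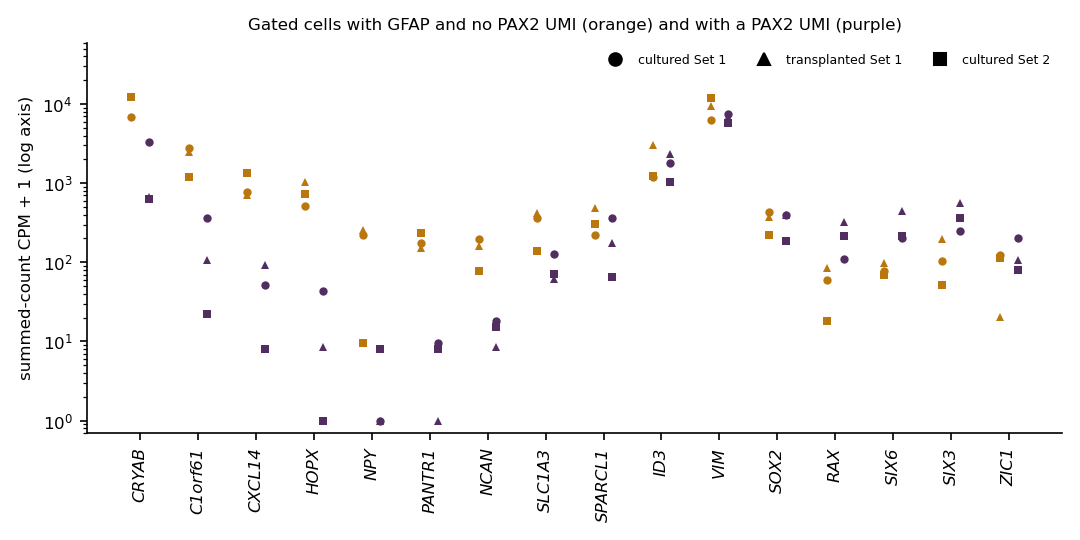
Level of 16 genes, as CPM + 1 on a log axis, in gated cells with GFAP and no PAX2 UMI (orange) and with a PAX2 UMI (purple), with 1 symbol per sample. HOPX, C1orf61, CXCL14 and NCAN sit higher in the GFAP cells of every sample shown, RAX, SIX6 and SIX3 higher in the PAX2 cells, and ID3 and VIM overlap.

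Levels also followed the number of marker UMIs on which a cell was chosen. Pooled over samples, CRYAB stood at 1471 CPM in the 81 cells with a marker sum of 3, at 7989 CPM in the 68 cells with 4 or 5 and at 12792 CPM in the 112 cells with more. HOPX stood at 194, 542 and 683 CPM in the same order and RAX at 162, 146 and 46.7 CPM. Just outside the rule, 99 cells with a marker sum of 2 had CRYAB at 1134 CPM, HOPX at 155 CPM and RAX at 279 CPM. Another 173 cells within the exclusion limits had a marker sum of 3 or more but no GFAP or PAX2 UMI. Their CRYAB at 5349 CPM, HOPX at 532 CPM and RAX at 62.4 CPM lay within the range of the gated cells. These levels were thus not particular to cells with GFAP or PAX2. TTR stood at 9577 CPM in those 173 cells, against 28.1, 6.95 and 91.6 CPM in the gated cells by rising marker sum. With a marker sum of at least 4 the test against the comparator called 608 genes, 485 of them among the 596.

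Transplantation was compared within the gated cells over 5 samples with at least 5 of them, all but transplanted Set 2. At the planned minimum of 10 cells only 1 transplanted sample remained. Without the Set as a block edgeR called 0 of 5638 genes (0.0%), although 83 fell below 0.05 before adjustment, and DESeq2 called 3. With the Set as a block, which left out cultured Set 2 in effect since its partner was absent, edgeR called 14 of 7349 genes (0.191%), 6 higher in transplanted samples (0.0816%) and 8 lower (0.109%). That fit rested on the pairs of Sets 1 and 3 and left 1 residual degree of freedom. Its SE and p-values therefore draw mostly on variability shared across genes, and little on the spread of each gene between Sets. All values of Set 3, whose shares were not told apart from background, rest on 6 cultured and 9 transplanted cells. The median mitochondrial share per gated cell was 1.81% and 1.38% in cultured Sets 1 and 3 and 5.55% and 3.21% in transplanted Sets 1 and 3, and its part in the differences was not tested.

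The 6 higher genes were SERPINA3, GPX3, LEFTY1, LEFTY2, FN1 and FBLN2. SERPINA3 stood at 57.6, 23.2 and 0 CPM in cultured Sets 1, 2 and 3 and at 750.4 and 775 CPM in transplanted Sets 1 and 3 (4.29 ± 0.73, adjusted p = 1.85e-05, edgeR with the block). A UMI was found in 17 of 162 gated cells of cultured Set 1 and 27 of 63 of transplanted Set 1. The other kept cells of the same samples showed the same direction at lower levels, 8.15, 6.72 and 1.70 CPM against 115 and 33.5, and the pigment-free RLBP1-positive cells stood at 2.39 CPM in cultured and 163 CPM in transplanted Set 1. The gene lies on the plus strand of chromosome 14 of GRCh38, from 94612377 to 94624055.

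GPX3, a secreted glutathione peroxidase, stood at 37.8, 27.1 and 0 CPM in cultured and 294 and 1072 CPM in transplanted samples (3.86 ± 0.69, adjusted p = 5.39e-05, edgeR with the block). In transplanted Set 3, 55 of its 83 UMIs came from 1 cell. LEFTY1, a secreted inhibitor of Nodal signalling, had no UMI in the cultured samples and stood at 91.9 and 181 CPM in the transplanted ones, at least 30.6-fold higher than the level of 3 UMIs over the cultured samples. Its UMIs came from 5 cells of transplanted Set 1 and 1 cell of transplanted Set 3. LEFTY2, a paralogue of LEFTY1 with which reads may be shared, was detected in 4 cells and 1 cell there. FN1, fibronectin, stood at 12.6, 81.3 and 0 CPM against 122 and 220 (3.64), and FBLN2, fibulin-2, at 9.01, 7.74 and 0 CPM against 74.1 and 142 (3.36).

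The 8 lower genes were PEG10, RCAN1, PPP1R17, GLIS3, WLS, RSPO3, WNT2B and HOTAIRM1. WLS stood at 346, 54.2 and 280.3 CPM in cultured and 29.7 and 0 CPM in transplanted samples (-3.76 ± 0.72, adjusted p = 0.000281, edgeR with the block), and the groups did not overlap. WNT2B, a Wnt ligand, stood at 110, 0 and 93.4 CPM against 5.93 and 0 (-4.18), and RSPO3, which strengthens Wnt signalling, at 176, 0 and 0 against 8.90 and 0 (-4.08). RSPO3 was 0 in both samples of Set 3, so its difference rests on Set 1 alone. PEG10, RCAN1, PPP1R17 and GLIS3 differed by -2.55 to -3.19. Of 12 Wnt genes tested with the block, WNT2B and RSPO3 were the 2 lower calls, and of 20 reactive glia genes SERPINA3 was the 1 call. SOCS3, an inhibitor of cytokine signalling, stood at 121, 27.1 and 0 CPM against 329 and 181 and was not called (1.99, adjusted p = 0.344).

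**Figure D4:**
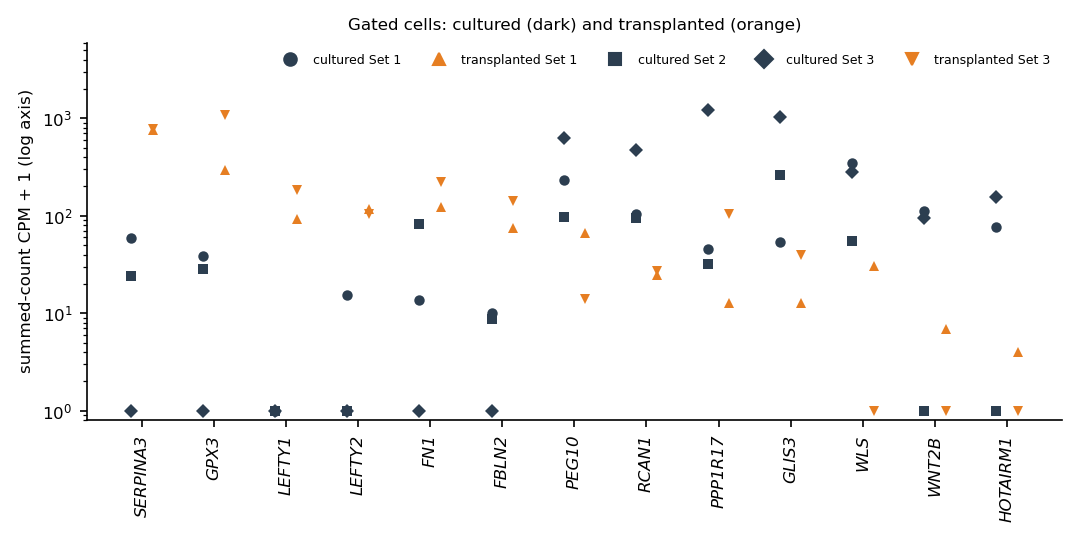
Level of 13 of the 14 genes called with the Set as a block, as CPM + 1 on a log axis, in gated cells of 3 cultured (dark) and 2 transplanted (orange) samples. SERPINA3, GPX3, LEFTY1, LEFTY2, FN1 and FBLN2 sit higher in both transplanted samples, and WLS lower in both.

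Within the RLBP1-positive classes conditions could be compared without the block only, the fit that also called 0 genes in the gated cells. With at least 3 RLBP1 UMIs edgeR called 0 of 6110 genes without the block (163 below 0.05 before adjustment) and DESeq2 called 1. With the pigment-free class edgeR called 0 of 5005 (13 below 0.05 before adjustment) and DESeq2 0. The difference of the response between classes was tested as an interaction. It was called for 3 of 6947 genes with the pigment-free class (0.0432%), NRP1, IGFBP7 and TTR, and for 2 of 7474 with the first comparator (0.0268%), and DESeq2 called 0 in each. For SERPINA3 the interaction was -0.69 ± 0.82 (adjusted p = 1.0), so no difference of its response between the classes was shown.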

How the data were processed

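Single-cell 3' libraries of 3 cultured and 3 transplanted samples were measured. The authors deposited raw UMI counts per gene and cell, made with Cell Ranger 6.0.2 (Set 1) and 7.1.0 (Sets 2 and 3) per the file headers and on GRCh38 per the submitters' processing notes. Whether intronic reads were counted is not given in the sources used here. The version did not differ within a Set.

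Cells with at least 1000 UMIs, 500 genes and at most 20% mitochondrial UMIs were kept of the matrices of 36601 genes. Doublets were scored with Scrublet in Scanpy 1.11.5 and removed as an alternative only, up to 0.8% per 1000 cells: 17 gated cells were among the 4177 highest scores. UMIs were summed per sample and class and tested with the edgeR 4.0.16 quasi-likelihood test in R 4.3.3 (filterByExpr, TMM, robust fit, Benjamini-Hochberg over all genes, threshold 0.05), without the 10 genes of the rule. DESeq2 1.42.0 was an alternative. On simulated data for the pigment-free comparison (7237 genes), 92.5% of 4-fold changes were recovered and 6 unchanged genes called. The simulation gave every gene the same variability between samples and changed only genes above a minimum count. These rates therefore do not carry over to more variable or scarcer genes. Shares used exact permutation tests in SciPy 1.17.1. Printed CPM carry no TMM factor. The condition fit used samples with at least 5 gated cells since at least 10 left 1 transplanted sample.

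The members and gene lists were chosen with earlier results of these data known. Named genes were the 15 largest rises and 15 largest falls with one sign in every sample and a mean of at least 100 CPM in the higher class, plus called list members. For the response they were up to 8 each way at 50 CPM, taken from the fit with the Set as a block since the unblocked fit called none. CRYAB, C1orf61 and genes compared between GFAP and PAX2 cells were chosen after their values were seen. Some list members are not reported here.

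The Set number pairs the samples, since the labels state 1 organoid batch per Set. Deviations of same-numbered samples from their group means correlated at 0.967, 0.650 and 0.868 over all kept cells. Those of unlike numbers across Sets 2 and 3 correlated at 0.790 and 0.631, and those between Set 1 and the others were negative. Coordinates are those of GENCODE 29.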

Additional observations from a re-analysis of the deposited data

Results flagged for a closer look

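For 3 genes the transplanted minus cultured difference itself differed between the gated cells and the pigment-free RLBP1-positive cells, by edgeR's quasi-likelihood interaction test over cultured Sets 1 and 2 and transplanted Sets 1 and 3. DESeq2 called none of them. IGFBP7, a secreted protein that binds insulin-like growth factors, had an interaction of 4.10 ± 0.67 on the log2 scale (adjusted p = 0.00205). It stood at 144 and 46.5 CPM in cultured Sets 1 and 2 and at 294 and 568 CPM in transplanted Sets 1 and 3 in the gated cells, and at 66.9 and 7.42 against 8.94 and 0 CPM in the RLBP1-positive cells. Of its 44 UMIs in transplanted Set 3, 33 were in 1 cell. NRP1, a receptor of semaphorins and VEGF, had an interaction of 3.91 ± 0.74 (adjusted p = 0.0168). It stood at 19.8 and 81.3 CPM in cultured and 41.5 and 388 CPM in transplanted gated cells, against 11.9 and 156 and 4.47 and 25.6 CPM in the RLBP1-positive cells. Of its 30 UMIs in transplanted Set 3, 15 were in 1 cell. TTR (transthyretin), an abundant RNA of choroid plexus and pigment epithelium, had an interaction of 10.8 ± 0.76 (adjusted p = 7.52e-11). It stood at 21.6 and 3.87 CPM in cultured and 154 and 0 CPM in transplanted gated cells. In the RLBP1-positive cells it was at 3067 CPM in cultured Set 1 and 14.8, 10.1 and 0 CPM in the other samples, so that value rests on 1 sample.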

How the results depend on the processing

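The 30 genes named for the largest rises and falls kept their sign in every alternative in which they were measured, which follows in part from the naming rule. Against the pigment-free cells the 596 calls became 227 with DESeq2, 18 without the sample block (20 of 26 measured named genes lost their call), 275 with cultured samples only and 137 with PAX2 cells alone, and 119 to 453 when 1 sample was left out. The other alternatives gave 408 to 661. Against RLBP1 of at least 3 the 659 calls became 206 with the gate thinned to 1000 UMIs, 386 with DESeq2, 1172 without the low-count filter, 154 without the sample block and 184 to 793 with 1 sample left out. The share difference ran from -0.305 to 0.126 points with 1 sample left out. Within the gated cells, transplanted against cultured, the 0 calls became 14 with the replicate block, 3 with DESeq2, 3 without the filter, 6 with at least 10 or 20 cells, and 0 to 2 with 1 sample left out. For RLBP1 of at least 3 they became 1 with DESeq2, 14 without the filter, 12 with at least 20 cells and 0 to 126 with 1 sample left out. For pigment-free cells they became 3 without the filter, 16 with at least 20 cells and 0 to 16 with 1 sample left out. The interaction count with the first comparator became 0 with DESeq2, 69 without the filter and 3 to 252 with 1 sample left out. With the pigment-free cells it became 0 with DESeq2, 5 without the filter and 3 to 17 with 1 sample left out. Fits that left 1 sample in a group assumed that it varied like the others. PPP1R17 turned from lower to 0.23 with a marker sum of at least 4, and ran from -4.37 to 0.27 with 1 sample left out. With PAX2 cells alone the sign turned for ATP1B2 (-0.54), CEBPD (-0.64), COL18A1 (0.026), FZD5 (0.12), FABP5 (-0.13), C1orf61 (-1.20), BMPR2 (-0.29), GLUL (-0.40), SIX3 (0.30), CD44 (-0.93) and HES1 (0.54). HES1 was 0.10 in cultured samples only and ran from -0.24 to 0.10 with 1 sample left out, and SIX3 from -0.83 to 0.043. The cause of these shifts was not tested. Not run were a comparator of at least 6 RLBP1 UMIs, the thinned gate within the gated cells, and the replicate block within RLBP1-positive cells, which left too few samples. Without the filter the split against pigment-free cells was 421 higher and 240 lower, not 316 and 280. Depth limits single low genes: 1 UMI is 31.1 CPM in cultured Set 3.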
